A study of Mus musculus with 6 samples.

Results

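Mitosis genes encode the proteins that take a cell from G2 through chromosome segregation to cytokinesis. The 38 genes described here were chosen by name as G2/M cyclins, mitotic kinases and parts of the kinetochore, spindle and cytokinesis machinery. All array probes annotated to a single one of these symbols were taken. They numbered 67 probes of 35 genes, out of 45281 probes on the array. Mki67, Ccnb1 and Tacc3 had no probe under their symbol in the annotation used and were not analysed here.

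The P14 group was made up of CD11b+Ly6G- cells, sorted to hold mainly monocytes and macrophages, from hearts infarcted 14 days after birth. The P1 group held cells of the same gate from hearts infarcted 1 day after birth. Shared by both groups were the outbred ICR strain, material of mixed sex, ligation of the left anterior descending coronary artery (LAD) and collection after 3 days, and neither group included unligated hearts. There were 3 Illumina arrays in each group, and the labels do not say whether arrays came from separate animals or from pools. The p-values therefore reflect the variation among these 6 arrays and nothing beyond it, and that variation may be technical.

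Mitosis is driven by CDK1 bound to cyclins A and B and is carried through by the Aurora and Polo kinases. The spindle checkpoint holds back the anaphase-promoting complex until kinetochores are attached, and the central spindle then guides cytokinesis. Many of these genes are transcribed together late in the cell cycle, through the DREAM and MMB complexes acting at a promoter element called the cell cycle genes homology region (CHR) and through NF-Y at CCAAT boxes. Cardiac macrophages can renew by local division, which the growth factor CSF1 stimulates.

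The promoters of the 5 mitosis genes that passed the test below and had an entry are shown, with that of Cenpa, which did not pass, because these elements are what such genes are known to share. The sequences are RefSeq's for build GRCm38.p6, from 170 bases before the start to 30 bases from it onward, on the gene's own strand. Capitals mark TTTGAA, the CHR letters searched here, and CCAAT, each on either strand.
Cdk1, chr10:69352883-69353082, minus strand: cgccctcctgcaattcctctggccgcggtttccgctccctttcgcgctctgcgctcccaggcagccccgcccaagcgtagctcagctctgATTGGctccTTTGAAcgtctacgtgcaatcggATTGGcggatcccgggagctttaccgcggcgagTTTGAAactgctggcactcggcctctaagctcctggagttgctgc
Top2a, chr11:99024160-99024359, minus strand: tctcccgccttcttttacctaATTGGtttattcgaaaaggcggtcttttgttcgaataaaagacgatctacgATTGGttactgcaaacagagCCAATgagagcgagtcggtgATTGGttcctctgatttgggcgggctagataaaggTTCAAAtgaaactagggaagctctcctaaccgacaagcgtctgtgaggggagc
Kif11, chr19:37376212-37376411, plus strand: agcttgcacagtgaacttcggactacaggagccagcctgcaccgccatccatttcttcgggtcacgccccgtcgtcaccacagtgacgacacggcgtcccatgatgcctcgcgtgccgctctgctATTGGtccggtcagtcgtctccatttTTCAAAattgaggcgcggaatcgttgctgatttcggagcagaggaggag
Prc1, chr7:80294281-80294480, plus strand: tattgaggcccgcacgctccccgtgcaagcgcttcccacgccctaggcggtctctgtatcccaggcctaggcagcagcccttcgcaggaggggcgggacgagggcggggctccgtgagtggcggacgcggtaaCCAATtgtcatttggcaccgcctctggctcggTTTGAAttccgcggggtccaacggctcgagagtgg
Ndc80, chr17:71526828-71527027, minus strand: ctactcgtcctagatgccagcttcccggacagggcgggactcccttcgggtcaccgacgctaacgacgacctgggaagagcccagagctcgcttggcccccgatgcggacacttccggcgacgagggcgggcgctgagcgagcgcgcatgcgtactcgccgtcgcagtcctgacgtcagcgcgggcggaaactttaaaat
Cenpa, chr5:30666716-30666915, plus strand: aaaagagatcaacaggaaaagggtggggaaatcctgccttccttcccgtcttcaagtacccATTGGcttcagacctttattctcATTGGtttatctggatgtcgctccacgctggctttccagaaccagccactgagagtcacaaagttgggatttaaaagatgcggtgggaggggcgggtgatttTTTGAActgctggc

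The CHR letters lay 15 bases before the start in Cdk1, with a second copy at 71 bases, and 23 bases before it in Top2a, 19 in Kif11 and 5 in Prc1. In Cenpa they lay 16 bases after the start. The Ndc80 window printed holds neither element, and its only copy of the CHR letters began at base 29 from the start and ran past the printed end. RefSeq promoters were matched for 29 of the 35 genes, and the whole window of 250 bases before to 50 after the start was searched in each. TTTGAA was found in 21 of the 29 windows (72.4%) and in 18.1% of the windows of 27025 genes. CCAAT was found in 21 of the 29 (72.4%) and in 37.9% of all. Both were found in 18 (62.1%) and in 7.12% of all, and 1 copy of TTTGAA overlapped a CCAAT in the mitosis gene windows. All 5 matched genes among those that passed the test held TTTGAA, as did 12 of the 17 matched genes that were tested and did not pass. CCAAT was in 4 of the 5, Ndc80 being without it, and in 10 of the 17. Aurkb, Ccna2, Cdc25c, Foxm1, Kif20a and Tpx2 had no entry. A match describes letters and is no evidence that a factor bound there.

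A probe was kept when its intensity was above a floor of 126.5 (6.98 on the log2 scale), set over the array background, on at least 3 of the 6 arrays. Of the 67 probes, 43 passed, and they covered 28 genes. The other 7 genes with a probe had none above the floor on 3 arrays: Bub1, Ccnb2, Cenpe, Cks2, Ect2, Hmmr and Racgap1. For these no difference was measurable on this array. Each of the 28 genes was tested by its kept probe with the highest mean, in a limma fit over all 10507 genes that passed, with Benjamini-Hochberg adjustment over all of them and a threshold of 0.05. Log2 fold changes are P14 minus P1, with n = 3 arrays per group throughout, and errors after ± are standard errors (SE) where the text says so. Since array background was left in the values, folds are understated, most for dim probes.

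Some facts of the whole series bear on these values. All arrays shared a median intensity of 120.9 because the deposited values had been quantile-normalized. P14 replicate 3 stood apart from the other P14 arrays on the second principal component, at -15.4 against 8.18 and 5.62 for P14 replicates 1 and 2, an axis that held 15.4% of the variance. Markers of some other cells differed with age. Over all genes tested 10.4% were lower in P14 and 9.62% higher. The counts of erythroid and of macrophage and gate markers below lie close to these shares. Of 14 cardiomyocyte markers tested, 9 were lower in P14 and 0 higher, with summed intensities of 3392 to 3742 in P14 and 6683 to 14570 in P1. Of 13 granulocyte markers 9 were lower and 3 higher, with sums of 10910 to 16950 in P14 and 17130 to 24300 in P1. The 3 higher ones were Retnlg, Chil3 and Cebpe, with log2 fold changes of 1.63, 1.12 and 0.45. Among the lower ones Mpo, a marker of granulocyte precursors, was below the floor on all 3 P14 arrays and at 8.31 to 8.44 on the log2 scale in P1. Ngp and Ctsg were also below it on all 3 P14 arrays, as was Myl7 among the lower cardiomyocyte markers. Such markers were tested only because P1 exceeded the floor, which favours calls of lower in both counts. These markers were named after their values were seen. Erythroid sums overlapped, at 45360 to 90900 in P14 and 57850 to 78680 in P1, with 1 of 9 markers lower in P14. That marker was Epor (-0.28, limma adjusted p = 0.0336). Of the erythroid factor genes Gata1 was not kept. Klf1 was below the floor on all 3 P14 arrays and at 7.07, 7.01 and 7.05 in P1, and did not pass (-0.10, limma adjusted p = 0.296). These erythroid genes were named after their values were seen. Of 9 fibroblast markers 3 were lower in P14, with sums of 7240 to 10480 in P14 and 12460 to 14770 in P1. The endothelial sums overlapped, at 1663 to 2055 in P14 and 1874 to 3025 in P1, and none of 8 markers passed. Of 4 dendritic cell markers tested 1 was higher in P14, with sums of 763 to 815 in P14 and 645 to 698 in P1. Of 10 lymphocyte and NK cell markers with a probe, 7 were not kept and 1 of the other 3 was lower in P14, with sums of 521 to 622 in P14 and 883 to 933 in P1. The lower one was Cd79b, while Cd3d and Cd3e read 6.87 to 7.07, around the floor. Of 11 macrophage and gate markers, 1 was lower and 1 higher in P14, with sums of 69010 to 80500 in P14 and 81030 to 82020 in P1. The part of these cells in the results below was not tested, and fewer cells of a type cannot be told apart from less RNA per cell in such bulk samples.

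The mitosis genes that passed the threshold were all lower in P14. Of the 28 genes tested, 6 passed as lower and 0 as higher, whereas 10.4% of all genes tested were called lower and 9.62% higher. In either direction 20.0% of all genes tested were called, a share close to that of the 28. At an unadjusted p under 0.05 in either direction the number of the 28 was 9, beside 34.5% of all genes tested, a share no lower than that of the 28. The log2 fold change was negative in 26 of the 28, and its median was -0.18, beside -0.01 over all genes tested. The largest differences were those of Top2a, Cdk1 and Aurkb, which were 1.59-fold to 1.73-fold lower in P14. The groups did not overlap in 10 genes with P14 lower and in 1 with P14 higher, and over all genes tested these shares were 20.5% and 18.0%. The remaining 17 genes overlapped between the ages.

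**Figure D1:**
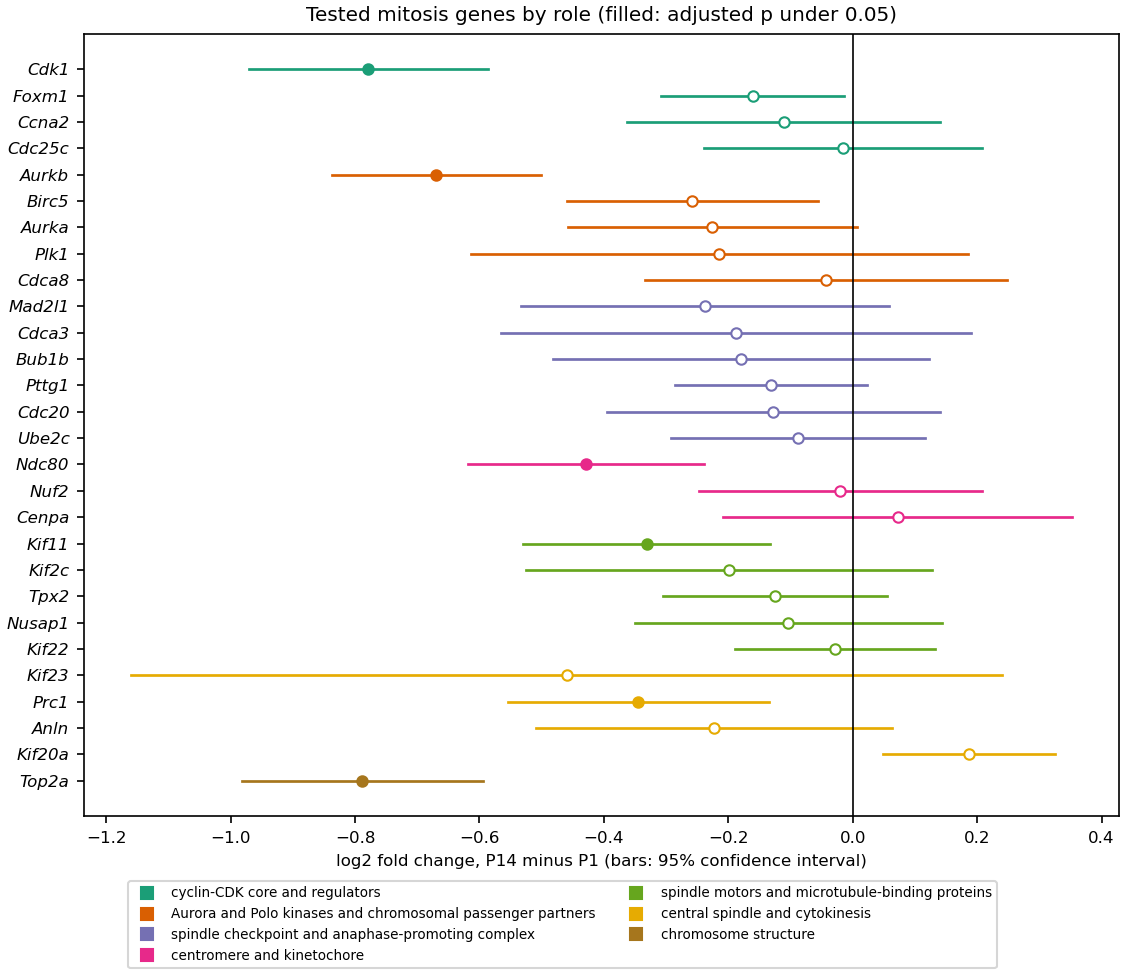
Log2 fold change (P14 minus P1) of each of the 28 tested mitosis genes with its 95% confidence interval from limma, coloured by role, with filled points for an adjusted p under 0.05. Filled points are 6, all left of 0, from Prc1 and Kif11 near -0.34 to Top2a at -0.79, and Kif20a and Cenpa lie right of 0.

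Cdk1, the kinase whose activation starts mitosis, had the clearest difference among cyclin-CDK genes. Its log2 intensity was 8.73, 8.94 and 8.78 on P14 replicates 1, 2 and 3, and 9.69, 9.57 and 9.52 on P1 replicates 1, 2 and 3. Every P14 array lay below every P1 array, by more than the spread within either age. The log2 fold change was -0.78 ± 0.0831 (SE), a 1.72-fold lower intensity in P14 (limma adjusted p = 0.00196). The other 2 Cdk1 probes were not kept. The other genes of this role did not pass. Foxm1, which encodes a transcription factor of G2/M genes, had 7.78, 7.74 and 7.69 in P14 and 7.91, 7.91 and 7.85 in P1, a difference of -0.16 (limma adjusted p = 0.117), and its groups did not overlap. Ccna2, which encodes cyclin A2, had a difference of -0.11 and the phosphatase gene Cdc25c one of -0.02, with 95% intervals of -0.36 to 0.14 and -0.24 to 0.21. Both probes were dim beside the floor of 6.98, where folds are understated most. Ccna2 read 6.84 to 7.29 and was above the floor on only 3 arrays, and Cdc25c read 7.28 to 7.53.

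Among the mitotic kinases and the chromosomal passenger complex, Aurkb passed. AURKB is the kinase of that complex, which corrects faulty kinetochore attachments. Its log2 intensity was 8.58, 8.61 and 8.72 on the P14 arrays and 9.36, 9.22 and 9.34 on the P1 arrays. The ages were well apart, with a log2 fold change of -0.67 ± 0.0728 (SE) and a 1.59-fold lower intensity in P14 (limma adjusted p = 0.00206). Birc5, which encodes survivin of the same complex, had 9.95, 10.12 and 10.26 in P14 and 10.39, 10.35 and 10.36 in P1. These groups did not overlap either, but P14 replicate 3 came close to the P1 arrays and the test was not passed (-0.26 ± 0.0874, limma adjusted p = 0.0749). Without P14 replicate 3 the adjusted p of Birc5 was 0.0313, and without any other single array it was 0.137 to 0.192. Aurka, the spindle pole kinase gene, had a difference of -0.23 and Plk1, the Polo-like kinase gene, one of -0.21. Cdca8, which encodes borealin of the passenger complex, had one of -0.04. The arrays of these 3 genes overlapped between ages, and their 95% intervals were -0.46 to 0.01, -0.61 to 0.19 and -0.33 to 0.25.

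No gene of the spindle checkpoint and anaphase-promoting complex passed by its tested probe, although all 6 log2 fold changes were negative, from -0.24 to -0.09. The gene with the highest mean was Cdca3, an F-box-like trigger of mitotic entry. It had 9.73, 10.09 and 10.45 in P14 and 10.18, 10.33 and 10.32 in P1. P14 replicate 3 was the highest of all 6 arrays and P14 replicate 1 the lowest, and the difference was -0.19 ± 0.164 (limma adjusted p = 0.476). It was -0.0068 without P14 replicate 1 and -0.37 without P14 replicate 3. Mad2l1, the checkpoint protein that inhibits CDC20, had 9.17, 9.61 and 9.66 in P14 and 9.67, 9.68 and 9.79 in P1. The ages did not overlap, though P14 replicate 3 almost reached the P1 arrays and P14 replicate 1 lay far below them. Its difference was -0.24 ± 0.128 (limma adjusted p = 0.236), and -0.08 without P14 replicate 1. Bub1b, of the same checkpoint, had -0.18, Pttg1, which encodes securin, -0.13, and Ube2c, the ubiquitin-conjugating enzyme gene of the complex, -0.09, and none passed. Pttg1 and Ube2c were read close to the floor of 6.98, at 7.02 to 7.25 and 6.88 to 7.15.

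At the kinetochore, Ndc80 passed, and Nuf2 and Cenpa did not. NDC80 is the outer kinetochore protein that binds microtubules. Its log2 intensity was 7.88, 7.95 and 7.86 on the P14 arrays and 8.47, 8.23 and 8.27 on the P1 arrays. All P14 arrays were below all P1 arrays, with a log2 fold change of -0.43 ± 0.0823 (SE), 1.35-fold lower in P14 (limma adjusted p = 0.0118). Nuf2, which encodes the binding partner of NDC80 in the same complex, had a difference of -0.02 with a 95% interval of -0.25 to 0.21. Its probe was dim, at 7.09 to 7.46 over the 6 arrays beside a floor of 6.98, where folds are understated most. Cenpa, the histone variant that marks centromeres, was 11.96, 12.02 and 12.40 in P14 and 11.98, 12.01 and 12.16 in P1. The ages overlapped, with a difference of 0.07 ± 0.121 (limma adjusted p = 0.730), and it ran from -0.06 without P14 replicate 3 to 0.16 without P14 replicate 1.

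Of the spindle motors and microtubule-binding proteins, Kif11 passed. It encodes the motor that pushes spindle poles apart. It had 7.67, 7.80 and 7.86 in P14 and 8.20, 7.98 and 8.15 in P1, groups that did not overlap. The log2 fold change was -0.33 ± 0.0863 (SE), 1.26-fold lower in P14 (limma adjusted p = 0.0325). The call was lost on removal of any 1 of 4 arrays (P14 replicate 1 or 2, P1 replicate 1 or 3), with adjusted p-values up to 0.106. Kif2c, the microtubule-depolymerising kinesin gene, had -0.20, the spindle assembly factor gene Tpx2 -0.13, Nusap1 -0.10 and the chromokinesin gene Kif22 -0.03, and none passed.

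In cytokinesis, Prc1, which encodes a bundler of microtubules in the central spindle, passed. It had 10.46, 10.46 and 10.62 in P14 and 11.002, 10.73 and 10.83 in P1, again without overlap. The log2 fold change was -0.34 ± 0.0907 (SE), 1.27-fold lower in P14 (limma adjusted p = 0.0337). This call was lost on removal of the same 4 arrays as that of Kif11, with adjusted p-values up to 0.101. Anln, the contractile ring scaffold anillin, had a difference of -0.22 (95% interval -0.51 to 0.06). Kif20a, a kinesin of the central spindle, ran the other way at 7.07, 7.06 and 7.05 in P14 and 6.86, 6.88 and 6.87 in P1. It was below the floor on all P1 arrays, so it was tested only because P14 exceeded it, and the difference of 0.19 did not pass (limma adjusted p = 0.0631). It passed as higher in P14 under 5 of 16 settings of the fit.

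Top2a encodes topoisomerase II alpha, which untangles sister chromosomes and is made in dividing cells. Its tested probe read 8.97, 8.99 and 9.09 on the P14 arrays and 9.90, 9.66 and 9.86 on the P1 arrays. The ages did not overlap, and the log2 fold change of -0.79 ± 0.0839 (SE) made it 1.73-fold lower in P14 (limma adjusted p = 0.00196). This was the largest difference among the mitosis genes tested.

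**Figure D2:**
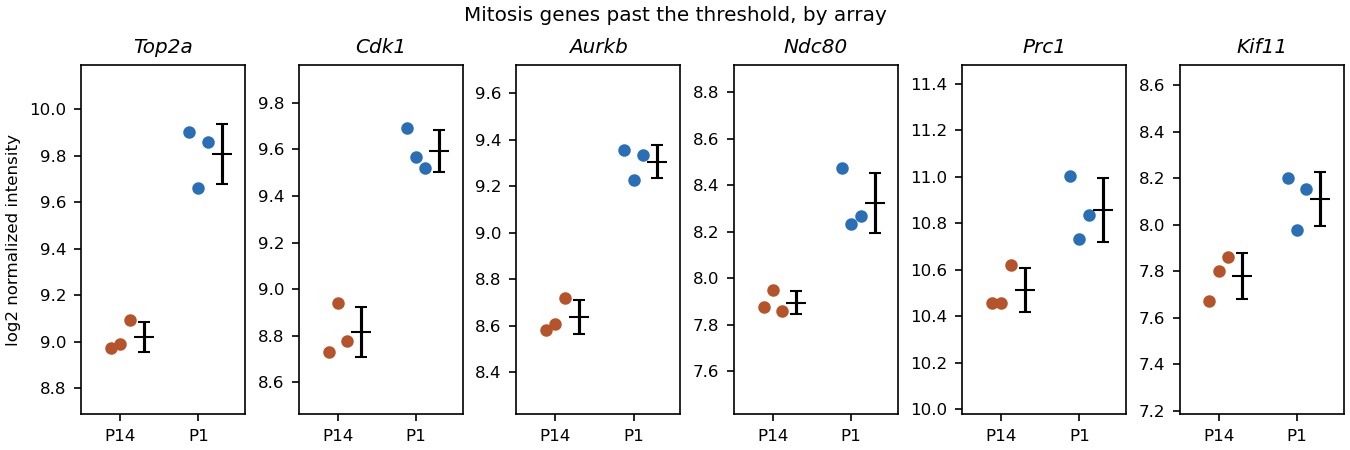
Log2 normalized intensity on each array of the 6 mitosis genes that passed the threshold, with P14 arrays left and P1 arrays right in each panel and the mean ± SD (n = 3) in black. Each panel spans the same range, and in every one the 3 P14 points lie below the 3 P1 points.

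The other kept probes of the same genes were read as well. In a fit over all 19109 kept probes, 10 of the 43 kept mitosis probes were lower in P14 at an adjusted p under 0.05 and 0 were higher, beside 8.22% and 8.25% of all kept probes. The log2 fold change was negative in 40 of the 43, with a median of -0.20. The groups did not overlap in 18 probes with P14 lower and in 1 with P14 higher, beside 18.4% and 17.4% of all kept probes. The number of lower probes was 6 without P14 replicate 1, P14 replicate 2 or P1 replicate 3. Probes of a gene read the same RNA and are not replicates.

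Several kept probes existed for 11 genes, and for 6 of these they differed in sign or in call. All 3 Birc5 probes were lower in P14, by -0.35, -0.30 and -0.26, and the first 2 of these passed (limma adjusted p = 0.0352 and 0.0310). For Cdc20, which encodes the activator of the anaphase-promoting complex, 1 of 4 probes passed. That probe read 8.63, 8.71 and 8.87 in P14 and 9.19, 9.26 and 9.31 in P1, with a difference of -0.52 (limma adjusted p = 0.00644). The tested Cdc20 probe read 9.49, 9.66 and 9.82 in P14 and 9.96, 9.60 and 9.79 in P1, ages that overlapped, with a difference of -0.13 that ran from -0.22 to -0.04 as single arrays were left out. The other 2 Cdc20 probes gave -0.20 and -0.15. Kif23, a motor of the centralspindlin complex, had 1 probe at -0.66 (limma adjusted p = 0.00629), with 8.37, 8.45 and 8.29 in P14 and 9.22, 8.84 and 9.03 in P1. The tested Kif23 probe was far more scattered, at 9.67, 9.01 and 10.23 in P14 and 10.54, 9.80 and 9.95 in P1 (-0.46 ± 0.303, limma adjusted p = 0.335). Its difference was -0.15 without P14 replicate 2 and -0.76 without P14 replicate 3. Its remaining kept probe gave -0.32. Top2a had a second, dimmer probe at -0.14, close to the floor, which did not pass (limma adjusted p = 0.320). The other probe of Mad2l1 gave 0.08, against -0.24 for the tested one, and that of Cenpa gave -0.24, against 0.07. For Bub1b, Cdc25c, Cdca3, Cdca8 and Foxm1 both probes were negative and neither passed.

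**Figure D3:**
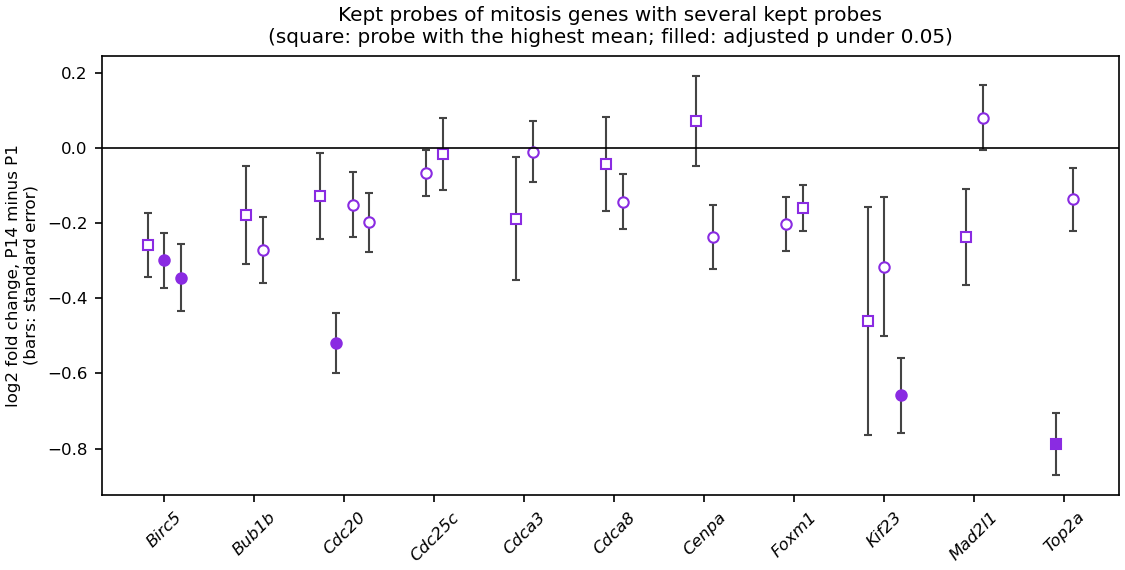
Log2 fold change (P14 minus P1) with its standard error for every kept probe of the 11 mitosis genes with several kept probes, where squares mark the probe tested for the gene and filled symbols an adjusted p under 0.05. The probes of Birc5 lie close together, whereas those of Cdc20, Kif23 and Top2a spread and Cenpa and Mad2l1 have a probe on each side of 0.

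Across arrays the mitosis genes varied within each age as well as between ages. The mean deviation of the 28 genes from their own means over 6 arrays was -0.20, -0.17 and 0.03 on P14 replicates 1, 2 and 3, and 0.20, 0.02 and 0.12 on P1 replicates 1, 2 and 3. P14 replicate 3 thus lay above P1 replicate 2. P14 replicate 3 was the highest P14 array in 23 of the 28 genes. P1 replicate 1 was the highest P1 array in 20, and P1 replicate 2 the lowest in 16. The 6 genes that passed did not share this overlap, with mean deviations of -0.34, -0.26 and -0.23 in P14 and 0.38, 0.18 and 0.27 in P1, a separation that the test itself selects. The 22 that did not pass had -0.16, -0.14 and 0.10 in P14 and 0.15, -0.03 and 0.07 in P1. The summed erythroid markers stood in the same order as the 28 genes within P14, at 45360, 61220 and 90900 on replicates 1, 2 and 3. On the P1 replicates they were 57850, 69930 and 78680, which is not the order of the 28 genes. The macrophage and gate sums (69010, 77780 and 80500) and the lymphocyte and NK cell sums (521, 571 and 622) also stood in that order within P14. The fibroblast, endothelial and dendritic cell sums did not. In the lymphocyte and NK cell sum only Cd79b was clear of the floor, at 8.09, 8.30 and 8.53 on the P14 replicates. The summed cardiomyocyte markers were 3659, 3742 and 3392 on the P14 replicates and 6683, 14570 and 13110 on the P1 replicates. The summed granulocyte markers were 16950, 13440 and 10910 on the P14 replicates and 17130, 20620 and 24300 on the P1 replicates. The part of these cells in the array pattern was not tested. Without P14 replicate 3 the median log2 fold change of the 28 genes was -0.24 and 7 were lower, Birc5 being added, and without P1 replicate 2 it was -0.24 and 7, Anln being added. Without P14 replicate 1, P14 replicate 2, P1 replicate 1 or P1 replicate 3, the count was 4, and those 4 were Aurkb, Cdk1, Ndc80 and Top2a each time.

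**Figure D4:**
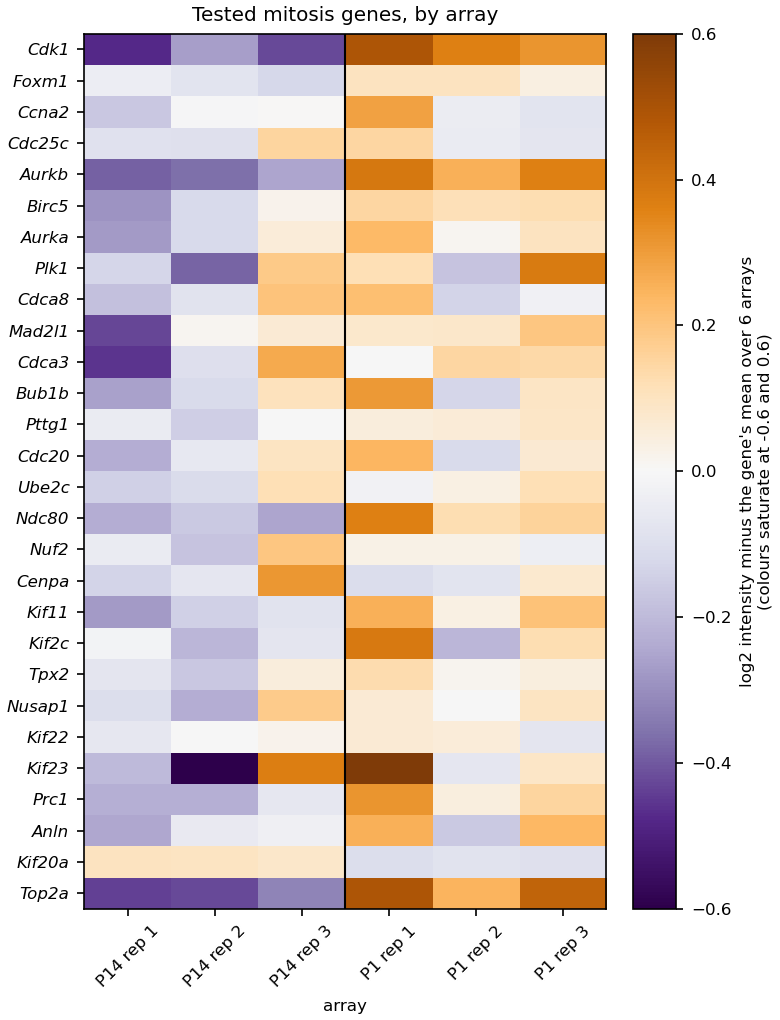
Log2 intensity of each tested mitosis gene on each array minus the gene's mean over the 6 arrays, with P14 arrays left of the line and P1 arrays right of it. Cdk1, Aurkb, Ndc80, Top2a, Kif11 and Prc1 change colour at the line, while P14 replicate 3 lies above the gene's mean in many other genes, such as Cdca3, Cdca8 and Nusap1.

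Other genes of the cell cycle, taken from lists of known function, were read in the same fit. Of 63 other mitotic genes tested, 13 were lower in P14 and 3 higher, with a median log2 fold change of -0.15. Over all genes tested 10.4% were lower and 9.62% higher. At an unadjusted p under 0.05 the number of the 63 was 26, beside 34.5% of all genes tested. The lower ones included Incenp, the scaffold of the passenger complex that holds AURKB (8.85, 9.15 and 8.88 in P14 and 9.40, 9.57 and 9.68 in P1, -0.59, limma adjusted p = 0.00998). Ncaph, a condensin subunit, had -0.54 (limma adjusted p = 0.00748), with 0.01 by its second brightest probe, and the kinesin gene Kifc1 -0.53 (limma adjusted p = 0.00272). The 3 higher genes were Lin54, a DNA-binding subunit of DREAM and MMB (0.52), the spindle gene Spag5 (0.38) and the condensin II gene Ncapg2 (0.32), the last 3 named after their values were seen. Without P1 replicate 3 the count of lower genes was 7 and that of higher genes 1. It was 8 and 2 without P14 replicate 1, and 8 and 1 without P14 replicate 2, and without P1 replicate 2 it was 13 and 1. Of 12 subunits of the anaphase-promoting complex and its enzyme, Anapc5 was higher (0.31, limma adjusted p = 0.0346) and Anapc4 lower (-0.28, limma adjusted p = 0.0346). Both calls were lost when any 1 array was left out, and Anapc5 had -0.09 by its second brightest probe.

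Earlier steps of the cycle were read from 2 lists. Of 44 DNA replication genes, 9 were lower in P14 and 0 higher, beside 10.4% and 9.62% of all genes tested, with a median of -0.08. At an unadjusted p under 0.05 they numbered 13, a share below the 34.5% of all genes tested. They included Orc6, a subunit of the origin recognition complex (9.02, 9.13 and 8.85 in P14 and 9.71, 9.69 and 9.54 in P1, -0.65, limma adjusted p = 0.00439). Tk1, thymidine kinase, had -0.61 (limma adjusted p = 0.0202) and the ribonucleotide reductase gene Rrm1 -0.59 (limma adjusted p = 0.0238). Neither Tk1 nor Rrm1 passed without P14 replicate 1, P14 replicate 2 or P1 replicate 3, and by the second brightest probe Tk1 had 0.03 and Rrm1 0.09. The count of lower replication genes was 3 without P14 replicate 2, 4 without P14 replicate 1 or P1 replicate 3, and 4 with the mean of each gene's probes. Of 20 G1/S genes 2 were lower, the kinase genes Cdk4 (-0.43, limma adjusted p = 0.0153) and Cdk2 (-0.36, limma adjusted p = 0.0244), and 0 were higher, a share of lower genes close to the 10.4% of all genes tested. At an unadjusted p under 0.05 there were 8, beside 34.5% of all. By its second brightest probe Cdk4 was called the other way, higher in P14 (0.51, limma adjusted p = 0.0331), and it had 0.04 with the mean of its probes. The call of Cdk2 was lost without P14 replicate 1, P14 replicate 2, P1 replicate 1 or P1 replicate 3. The count of lower G1/S genes was 4 without P14 replicate 3 and 1 without P14 replicate 2, P1 replicate 1 or P1 replicate 3, and 1 gene was higher without P1 replicate 2.

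Genes listed here as restraints on division, whose action can depend on the cell, did not move one way. Of 25 tested, 4 were lower in P14 and 3 higher, beside 10.4% and 9.62% of all genes tested, with a median of 0.02. At an unadjusted p under 0.05 they numbered 13, beside 34.5% of all. Rgcc, a regulator of cell cycle progression, had 12.52, 12.52 and 12.002 in P14 and 10.94, 11.17 and 11.48 in P1, 2.22-fold higher in P14 (limma adjusted p = 0.00549). The factor gene Klf4 was 1.58-fold higher (limma adjusted p = 0.00690) and Klf2 1.82-fold lower (limma adjusted p = 0.0125). By its second brightest probe Klf4 had a log2 fold change of 0.02. The CDK inhibitor genes Cdkn1a (0.10) and Cdkn1b (0.02), named for their role after values were seen, did not pass (limma adjusted p = 0.511 and 0.907). Without P1 replicate 2, P1 replicate 3 or P14 replicate 1 the lower genes numbered 2. Of 13 genes of growth signals to macrophages and progenitors, 3 were lower and 1 higher, beside the same 10.4% and 9.62%. At an unadjusted p under 0.05 there were 6 of the 13, beside 34.5% of all. Csf1r, the CSF1 receptor gene, had 10.93, 11.08 and 11.12 in P14 and 12.04, 11.74 and 11.83 in P1, 1.77-fold lower in P14 (limma adjusted p = 0.00237). By its other probe the log2 fold change of Csf1r was -0.28 and did not pass (limma adjusted p = 0.240). Igf1r, the receptor gene of insulin-like growth factor 1, was 1.24-fold lower (limma adjusted p = 0.0311), a call lost with the second brightest probe (-0.05) and without P14 replicate 1, P14 replicate 2, P1 replicate 2 or P1 replicate 3. Cebpe, a factor of granulocyte maturation, was 1.37-fold higher (limma adjusted p = 0.0145), and this call was lost without P1 replicate 3. The number of lower genes in this list was 1 without P14 replicate 1, P14 replicate 2 or P1 replicate 3.

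**Figure D5:**
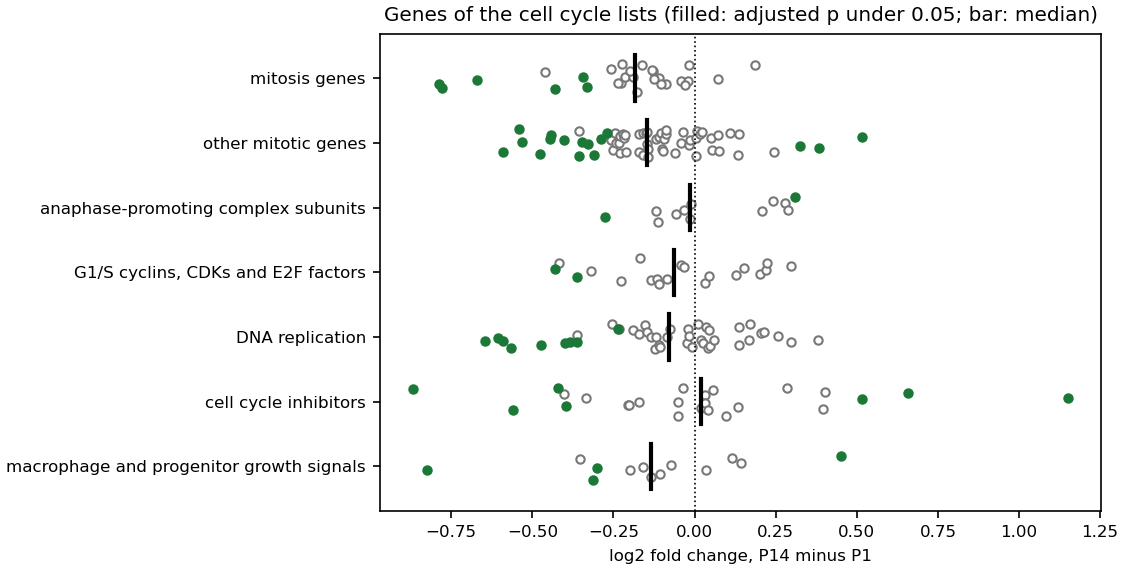
Log2 fold change (P14 minus P1) of every tested gene in the mitosis set and 6 other cell cycle lists, with filled points for an adjusted p under 0.05 and a bar at each list's median. The bars lie at -0.18 for mitosis genes, -0.15 for other mitotic genes, -0.13 for growth signals, -0.08 for DNA replication, -0.06 for G1/S genes, -0.01 for the anaphase-promoting complex and 0.02 for inhibitors, and no test between lists was made.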

How the data were processed

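Total RNA of the sorted cells was labelled with Cy3 and read on Illumina mouse arrays, per the labels' protocols. The deposited values are linear probe intensities. The 6 columns of intensity the authors deposited held nearly the same sorted values, so they had been quantile-normalized, and background had not been subtracted (lowest value 96.7). For the software, a name and version are not given in the sources used here. A further table with 24 columns of scanner values, named by chip position, could not be tied to samples and was not used. Groups and replicate numbers come from the sample titles.

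Probes were named through the platform annotation: 34885 of 45281 had 1 symbol, 18 several and 10378 none, and 0 symbols needed an update through Entrez identifiers. The floor was the most frequent log2 value plus 3 standard deviations of the background. It kept 19109 probes, 16268 of them with 1 symbol. Log2 intensities were modelled on group alone by lmFit, then eBayes (R 4.3.3, limma 3.58.1, two-sided tests), and the fit was tested on simulated data. Arrays carry no read depth, and their number limits the precision.

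The members, the gene lists and the tests were chosen with earlier results of these data known. Values on every array are given for members that passed, for the brightest member of a role with none, and for members whose probes disagreed. Of each other list the 3 largest called differences are named. Genes outside that rule (Foxm1, Kif20a and others so marked) were chosen after their values were seen. Alternatives covered the filter, the probe rule, normexp, cyclic loess, array weights, the variance model, a block on replicate number and leaving out each array, with the tested probes kept.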

Additional observations from a re-analysis of the deposited data

How the results depend on the processing

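Of 9 settings that kept all arrays, none ended the calls of Cdk1, Aurkb, Ndc80, Kif11 and Prc1. Each of these genes had only 1 kept probe, so the filter and probe rule settings read that same probe again and could not test the choice of probe. Top2a, which had 2 kept probes, lost its call under 1 setting, with the probe of the second highest mean (-0.14, limma adjusted p = 0.324). Cdk1, Aurkb, Ndc80 and Top2a also kept their calls without each single array. The count of mitosis genes lower in P14 was 6 to 8 with all arrays and 4 to 7 with 1 array left out, and that of lower probes 8 to 12 and 6 to 11. Probes were not counted with the mean of probes or with the probe of the second highest mean. The median log2 fold change of the genes was -0.23 to -0.13 and -0.24 to -0.13. The count of higher genes was 1 with no filter, the mean of probes, normexp, trend and robust eBayes, or array weights. That of higher probes was 1 under those of these settings in which probes were counted. Among the genes it was Kif20a each time, and the cause was not tested. The sign of Cenpa turned with the mean of probes (-0.082), the second probe (-0.24), array weights (-0.0022) and without P14 replicate 3 (-0.065), and that of Mad2l1 with the second probe (0.080).

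With the replicate number as a block 6 mitosis genes and 9 probes were lower, with a median of -0.18. Same-numbered arrays correlated by 0.16, 0.07 and 0.13 in their deviations from group means, and differently numbered ones by -0.15 to -0.02. Whether the numbers pair samples cannot be told from these values, and the main fit used no block.

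Over all genes, 1094 were lower and 1011 higher in P14. These counts were 519 and 535 without P1 replicate 3, 619 and 614 without P14 replicate 1, and 575 and 617 without P14 replicate 2. Replication genes numbered 5 lower with the second probe. With array weights 5 G1/S genes were lower. Of restraining genes 2 were lower with no filter and 1 higher with the second probe. With the second probe 0 growth signal genes were lower, 1 G1/S gene (Cdk4) was higher and 0 anaphase-promoting complex genes were higher. In that complex 0 were lower with normexp, the block or trend and robust eBayes, and 2 were higher with the last.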

Other observations

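Many mitosis genes had a silent probe beside a bright one. Among the 24 probes that were not kept, 19 were above the floor on no array, and 14 belonged to 10 genes that also had a kept probe. Nusap1, which encodes a microtubule-binding protein of the spindle, had 1 probe at 9.32 to 9.73 on the P14 arrays and 9.55 to 9.65 on the P1 arrays, and 3 that were not kept. Cdk1 and Anln each had 1 kept probe and 2 that were not. A gene whose only probes were silent, such as Ccnb2, can therefore not be read as unexpressed from these arrays.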
